A study of Mus musculus with 26 samples.

Results

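The genes described here encode the Wnt ligands, their Frizzled (Fzd) receptors and the secreted modulators of the pathway, the R-spondins (Rspo), the secreted Frizzled-related proteins (Sfrp) and the Dickkopf proteins (Dkk). They are the 39 protein-coding genes of the RefSeq annotation of GRCm38 whose symbol is Wnt, Fzd, Rspo, Sfrp or Dkk followed by a digit, without Wnt6 and Wnt10a, out of 21521 located protein-coding genes. There were 17 Wnt, 10 Fzd, 4 Rspo, 4 Sfrp and 4 Dkk genes. Their positions were set against a list of domain boundaries from Micro-C, a chromosome conformation assay that cuts chromatin with micrococcal nuclease.

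The series holds 26 libraries of G1 cells of the RAD21-dTAG line, a Bruce-4 derived C57BL/6J embryonic stem cell (ESC) line in which the cohesin subunit RAD21 carries a degradable tag. ESCs received 500 nM dTAG (6 libraries), which triggers loss of the tagged RAD21, 20 µM A485 (6 libraries), which blocks the histone acetyltransferases p300 and CBP, or 0.05% v/v DMSO (6 libraries), and epiblast-like cells received dTAG (4 libraries) or DMSO (4 libraries). Every group derives from this one line, so all of them carry the tag. For 6 of the ESC libraries given dTAG or A485 the growth protocol also mentions epiblast-like differentiation, and none of these 6 enters a result. The list used here is the pooled one of the DMSO-treated ESCs, grown with serum, LIF and 2i, and it has no value per library. It holds 3515 intervals of 25 kb on 20 chromosomes in mm10 coordinates, with no score, so it carries no replicate error, its contact depth is unknown, and the cell type could not be checked against markers. The other groups were not analysed here. Genes are not replicates and the members were chosen with earlier results known, so counts are given beside those of all protein-coding genes, and no difference was tested.

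Wnt proteins are lipid-modified secreted ligands that bind a Frizzled receptor and, in the canonical branch, the co-receptors Lrp5 and Lrp6. The bound complex stabilises beta-catenin, which enters the nucleus and acts with TCF/LEF factors. R-spondins keep Frizzled receptors on the cell surface, secreted Frizzled-related proteins bind Wnt ligands outside the cell, and most Dickkopf proteins bind Lrp5 and Lrp6. The pathway helps to maintain mouse ESCs, and its ligands pattern the primitive streak, limbs and nervous system. A domain boundary is a position across which contacts are depleted, and a domain is here the stretch between neighbouring boundaries.

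Among the 39 genes, 4 overlapped a boundary interval, and all of these 4 encode Wnt ligands. Over all protein-coding genes 15.1% overlapped one, against 10.3% of the 39. Wnt4, which acts in kidney and ovary development, lay with its whole 21.9 kb body inside the boundary chr4:137275001-137300000. Wnt16, known for its role in cortical bone, lay with its whole 10.3 kb body inside chr6:22275001-22300000. Genes held whole in this way made up 5.13% of the 39 genes and 2.67% of all protein-coding genes, which is a difference of very few genes. Wnt5a, a ligand of the beta-catenin-independent branch needed for limb and trunk outgrowth, had 20.5 kb of its 22.9 kb inside chr14:28500001-28525000. The rest of its body passed the interval's edge.

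Wnt5b, the paralogue of Wnt5a, was the only one of the 39 genes with a whole boundary inside its body. The interval chr6:119450001-119475000 lies within its 112 kb, 17.5 kb from the nearer end of the gene. Such a boundary was present in 3.49% of all protein-coding genes and in 10.1% of those between 100 and 200 kb long. Rspo2, the only longer member at 151 kb, held none. RefSeq places 3 start sites in Wnt5b, which is transcribed from the minus strand, and the boundary separates them. The most upstream start lay 69.3 kb from the interval, in the domain next to it. Another lay inside the interval, 4.71 kb from its centre, and the most downstream one lay 0.615 kb past its far edge.

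The 250 bases before these starts and those of Wnt4 and Wnt16 are shown. Of the family's listed promoters they are those in or at a boundary, with the distant Wnt5b promoter for comparison. Wnt5a has no listed promoter. Sequences are from RefSeq (GRCm38.p6), 5′ to 3′ in the direction of transcription, with CpG dinucleotides in capitals. They come, in order, from chr4:137277385-137277634 (plus strand), chr6:22287977-22288226 (plus strand) and, on the minus strand, chr6:119544348-119544597, chr6:119467212-119467461 and chr6:119449387-119449636.
Wnt4: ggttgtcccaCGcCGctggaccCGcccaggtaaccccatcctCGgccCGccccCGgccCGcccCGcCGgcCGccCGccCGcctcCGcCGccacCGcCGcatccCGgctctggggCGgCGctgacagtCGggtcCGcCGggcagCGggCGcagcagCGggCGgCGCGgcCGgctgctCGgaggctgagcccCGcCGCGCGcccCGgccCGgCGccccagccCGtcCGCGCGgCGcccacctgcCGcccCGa
Wnt16: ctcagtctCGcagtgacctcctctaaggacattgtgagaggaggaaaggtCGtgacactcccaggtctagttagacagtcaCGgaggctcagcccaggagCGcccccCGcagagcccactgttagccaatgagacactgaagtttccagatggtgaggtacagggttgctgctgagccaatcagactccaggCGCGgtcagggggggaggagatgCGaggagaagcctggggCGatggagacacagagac
Wnt5b most upstream: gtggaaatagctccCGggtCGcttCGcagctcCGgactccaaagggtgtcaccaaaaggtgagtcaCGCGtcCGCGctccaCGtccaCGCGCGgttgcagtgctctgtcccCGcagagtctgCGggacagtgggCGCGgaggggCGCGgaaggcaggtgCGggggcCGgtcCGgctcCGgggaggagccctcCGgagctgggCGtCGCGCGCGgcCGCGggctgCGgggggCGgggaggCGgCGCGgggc
Wnt5b inside the boundary: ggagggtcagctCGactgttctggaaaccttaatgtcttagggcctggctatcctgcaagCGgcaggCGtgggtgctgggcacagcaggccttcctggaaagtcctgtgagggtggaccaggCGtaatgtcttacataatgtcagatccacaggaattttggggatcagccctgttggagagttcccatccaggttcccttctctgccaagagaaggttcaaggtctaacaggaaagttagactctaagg
Wnt5b most downstream: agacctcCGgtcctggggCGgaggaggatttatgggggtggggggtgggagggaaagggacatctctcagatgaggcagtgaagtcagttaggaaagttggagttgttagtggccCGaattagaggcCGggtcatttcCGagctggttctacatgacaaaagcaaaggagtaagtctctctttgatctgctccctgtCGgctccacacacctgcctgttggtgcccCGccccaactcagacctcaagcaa

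These promoters differ widely in base composition. The Wnt4 promoter had 44 CpG dinucleotides in 250 bases and a GC content of 85.2%. The Wnt16 promoter had 9 CpG and 59.2% GC. In Wnt5b the most upstream promoter had 35 CpG and 75.2% GC, whereas the one inside the boundary had 4 CpG and 53.2% GC and the most downstream one 7 CpG and 55.6% GC. The median over 21045 promoters of 17274 protein-coding genes was 10 CpG and 55.6% GC. Starts within the boundary were thus found in both a CpG-rich and a CpG-poor promoter.

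Motif matches were searched on both strands of the same 250 bases. A CTCF core, read as CC, any 3 bases, AG, any 2 bases and GGC, matched none of the 5 promoters shown, and 8.29% of all promoters hold it. The TATA box TATAAA, present in 11.7% of all promoters, also matched none of the 5. The TCF/LEF motif CTTTGAT, present in 2.85% of all promoters, matched the most downstream Wnt5b promoter at bases 180 to 186. No match says only that these letters are not in this window. Over the 29 promoters of the 26 members with an entry, the CTCF core was found in 5, TATAAA in 4 and CTTTGAT in 2, and the median GC content was 68% with 22 CpG. The members with no entry are Wnt5a, Wnt7b, Wnt8a, Fzd2, Fzd3, Fzd6, Fzd8, Rspo2, Rspo3, Sfrp1, Sfrp4, Dkk3 and Dkk4.

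**Figure D1:**
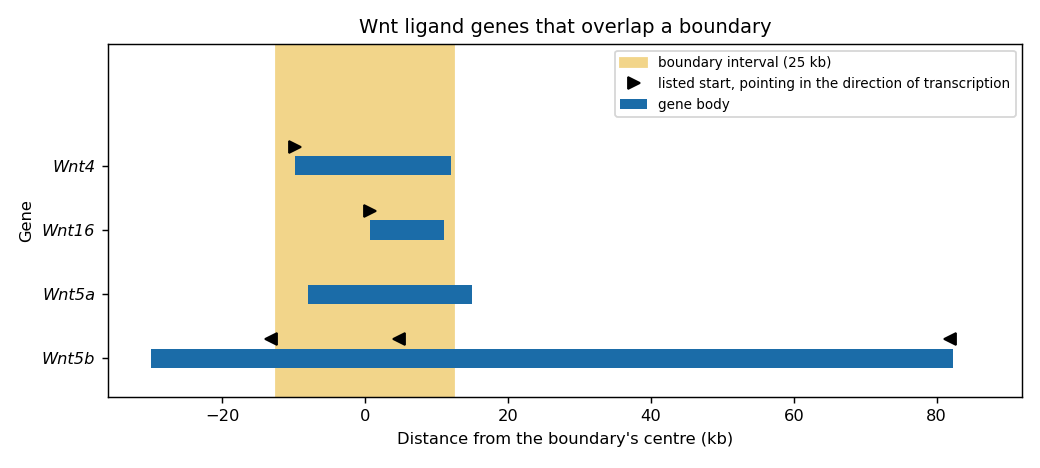
Bodies of the 4 Wnt ligand genes that overlap a boundary (blue bars), against distance from the centre of the 25 kb boundary interval in kb (shaded), with listed starts as arrowheads pointing in the direction of transcription; Wnt5a has no listed start. Wnt4 and Wnt16 lie whole inside the interval, and the 3 Wnt5b starts fall on one side of it, inside it and on the other side.

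The domains on either side of these genes differed in gene content. The Wnt4 boundary lay between a 400 kb domain with 5 protein-coding genes, among them C1qb, C1qc, C1qa and Epha8, and a 375 kb domain with 7, among them Cdc42, Cela3a and Cela3b. The Wnt16 boundary lay between a 150 kb domain that held the midpoint of 0 protein-coding genes and a 200 kb domain that held only Fam3c. The Wnt5a boundary lay between a 700 kb domain with Erc2 and a 575 kb domain with Lrtm1, each the single gene placed there by its midpoint. The boundary within Wnt5b had Dcp1b, Cacna2d4, Lrtm2 and Adipor2 in the 325 kb domain on one side, and Fbxl14, Gm52875, Erc1 and Rad52 with Wnt5b itself in the 450 kb domain on the other. No other protein-coding gene had an end inside any of these 4 intervals.

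Few members ended close to a boundary. Counting a gene as near when either end lay inside an interval or within 10 kb of it, 3 of the 39 genes were near, namely Wnt4, Wnt5a and Wnt16, a share of 7.69% (95% Wilson interval 2.65 to 20.3, counting error only). Over all protein-coding genes 18.3% were near. All 3 had an end inside the interval itself, where 11.7% of all protein-coding genes had one. Among the ligands this was 3 of 17 genes, or 17.6% (Wilson interval 6.19 to 41.0). Among the Fzd, Rspo, Sfrp and Dkk genes it was 0 in each class. Wilson upper limits were 27.8% for the 10 Fzd genes and 49.0% for each class of 4. Pooling these 22 genes, which was not one of the set classes, gave an upper limit of 14.9%, for counting error only. The ligand share was thus close to that of all genes for the 10 kb window and above it for ends inside the interval. Both comparisons rest on the same 3 ligand genes, and the ligands' Wilson interval holds both shares of all genes. None of the receptors and modulators added to the count. Wnt5b was not near by this measure, because its ends lay 17.5 kb or more from the boundary that its body spans. When the listed starts were used instead of both ends, 3 of 26 members with a start were near, against 12.4% of 17274 protein-coding genes, and they were Wnt4, Wnt16 and Wnt5b.

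The members' median distance was close to that of all protein-coding genes, with a narrower spread. Their median distance was 101 kb with quartiles of 50.5 and 179 kb, and the median over all protein-coding genes was 98.9 kb with quartiles of 22.8 and 229 kb. The farthest member, Dkk2, lay 495 kb away, and 92.7% of all protein-coding genes lay within 500 kb. Within 50 kb were 10 of the 39 genes (25.6%), and 35.6% of all protein-coding genes. Within 150 kb were 27 of the 39 genes (69.2%), and 61.9% of all protein-coding genes. The members thus had a smaller share within 50 kb and a larger one within 150 kb, which was not a set window. Within 100 kb their share was 46.2% against 50.3% of all protein-coding genes, and within 230 kb it was 76.9% against 75.1%.

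**Figure D2:**
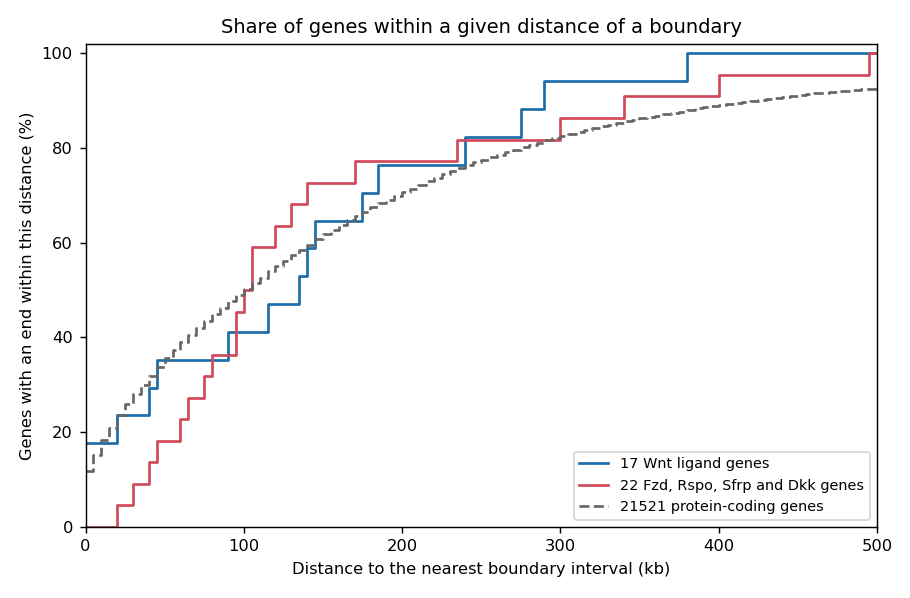
Share of genes (%) with an end within a given distance of a boundary (kb) for the 17 Wnt ligand genes, for the 22 Fzd, Rspo, Sfrp and Dkk genes and for all 21521 protein-coding genes (dashed). The ligand curve starts at 17.6% and the receptor and modulator curve at 0, against 11.7% for all genes, and the receptor and modulator curve is at 72.7% at 150 kb and 77.3% at 200 kb, against 61.9% and 70.6% for all genes.

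**Figure D3:**
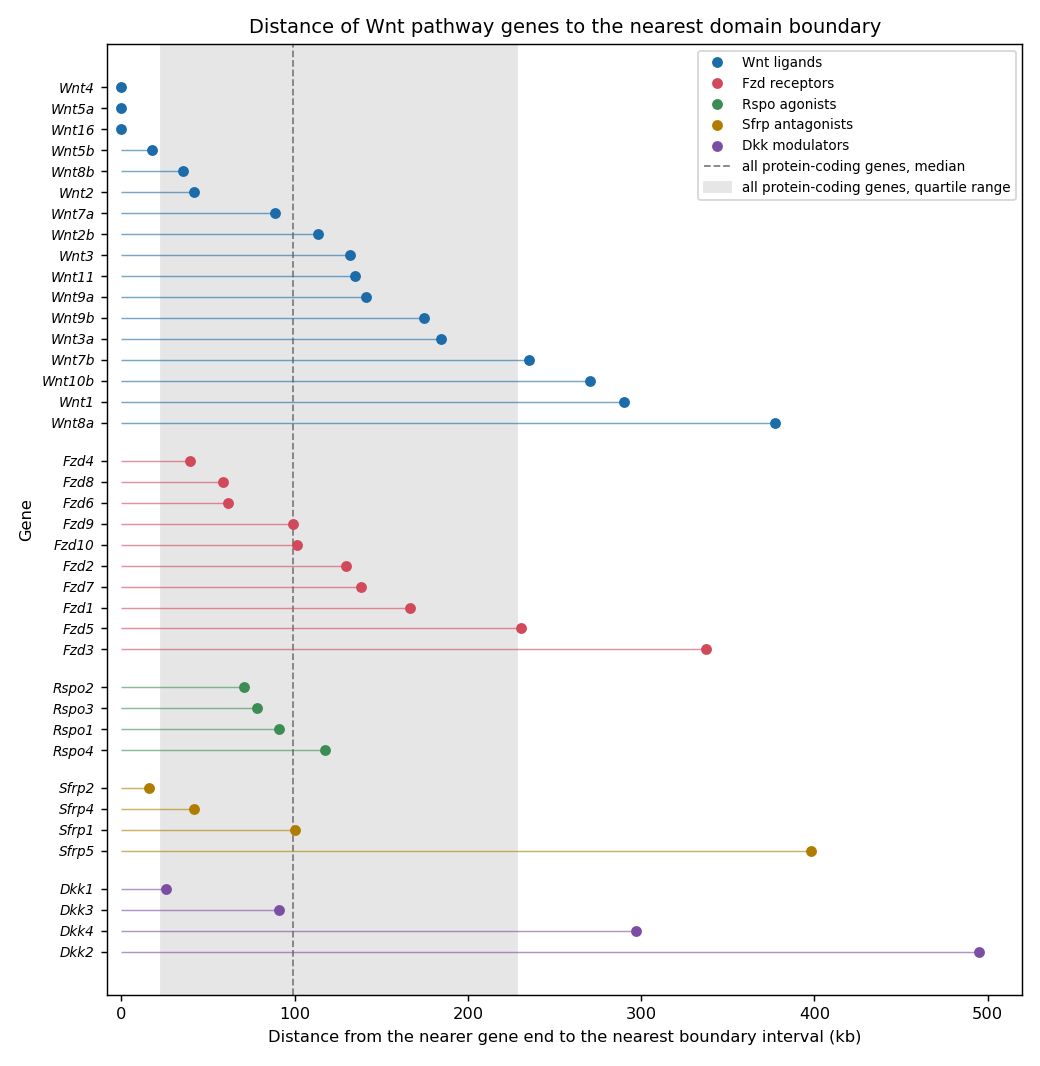
Distance in kb from the nearer end of each of the 39 genes to the nearest boundary interval, by class, with the median of all protein-coding genes (dashed line, 98.9 kb) and the range between their quartiles (shaded, 22.8 to 229 kb). The 3 genes at 0 are the ligand genes Wnt4, Wnt5a and Wnt16, and Dkk2 is farthest at 495 kb.

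The other ligand genes lay inside domains at a wide range of distances. Wnt8b, expressed in the developing forebrain, lay 35.7 kb from a boundary, inside a 400 kb domain with 7 protein-coding genes, Pkd2l1, Scd3, Scd2 and Scd4 among them. Wnt8a, its paralogue that acts in the early embryo, was the ligand gene farthest from a boundary, at 377 kb. Its 825 kb domain held 18 protein-coding genes, including Apc, the scaffold of the beta-catenin destruction complex, and no other of 49 further pathway genes shared a domain with a member. Wnt7a, which dorsalises the limb, lay 88.6 kb from a boundary, inside a 350 kb domain, and Wnt7b, which acts in lung growth, lay 235 kb from one in a 575 kb domain. Neither of these paralogue pairs sat at like distances.

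Wnt2 and Wnt2b, which together specify the lung, also differed in their surroundings. Wnt2 was alone in a 175 kb domain, the shortest that held a member, 42.2 kb from its edge. Wnt2b lay 113 kb from a boundary, inside a 350 kb domain with 9 protein-coding genes, Tafa3, Ppm1j, Rhoc and Mov10 first among them. Wnt11, which promotes branching of the ureteric bud, lay 135 kb from a boundary, inside a 400 kb domain with only Thap12 and Uvrag.

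The 3 neighbouring ligand pairs were each kept in a single domain. Wnt1, needed for the midbrain, and Wnt10b, known in bone and fat, lay 11.7 kb apart on chromosome 15, where their 1500 kb domain counted 48 protein-coding genes. Their boundaries were far off, 289.9 kb from Wnt1 and 271 kb from Wnt10b. Wnt3a, needed for the tail and somites, and Wnt9a, needed for joints, lay 16.1 kb apart in a 525 kb domain on chromosome 11 with 17 protein-coding genes, Trim17, H2aw, H3f4 and Trim11 first among them. Wnt3, needed for gastrulation, and Wnt9b, which induces kidney tubules, overlapped by 1.10 kb in the annotation and shared a 900 kb domain on the same chromosome with 18 protein-coding genes, the first of them Plcd3, Acbd4, Hexim1 and Hexim2.

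In every one of the 3 pairs the listed strands were minus for the left gene and plus for the right gene, so the genes are arranged head-to-head. The nearest starts lay 11.7 kb apart for Wnt10b and Wnt1, 16.2 kb for Wnt3a and Wnt9a and 24.4 kb for Wnt9b and Wnt3. Sharing a domain is usual at such spacing. A boundary separated 14.8% of all protein-coding gene pairs with less than 100 kb between their bodies. It separated 9.19% of the 16798 pairs whose midpoints were as far apart as in these ligand pairs, 17.4 to 50.8 kb, a range chosen after the values were seen.

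A linked pair of secreted antagonists lay farther apart and was separated. Dkk4, which acts in skin appendages, and Sfrp1, an inhibitor found in many embryonic tissues, lie 783 kb apart on chromosome 8 with 2 boundaries between them, at chr8:22925001-22950000 and chr8:23250001-23275000. Dkk4 lay in a 725 kb domain with 14 protein-coding genes and Sfrp1 alone in a 275 kb one. Of all protein-coding gene pairs with a gap of 500 kb to 1 Mb, 80.5% were separated, and of those with a gap of 100 to 500 kb, where no member pair fell, 46.6% were. Fzd2, 1119 kb from Wnt9b on chromosome 11, was separated from it and from Wnt3 by the boundary at chr11:103025001-103050000. No other members lay within 2 Mb of each other.

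All 10 receptor genes lay inside domains, and none ended within 10 kb of a boundary. Fzd4, the receptor for Norrin in retinal vessels, was closest, at 39.9 kb in a 300 kb domain with Tmem135. Fzd8 and Fzd6 followed at 58.8 and 61.8 kb, Fzd9 and Fzd10 lay 99.0 and 101 kb away, and Fzd2, Fzd7 and Fzd1 lay 129, 138 and 167 kb away. Fzd5, needed in the eye and gut, lay 231 kb away in a 775 kb domain with 14 protein-coding genes, the first of them Creb1, Mettl21a and Ccnyl1. Fzd3, which acts with Fzd6 in planar cell polarity and axon guidance, was farthest, at 338 kb in a 750 kb domain with 8. Fzd3 and Fzd6 thus lay far apart on this measure, and the receptor median was 115 kb.

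Receptor genes shared their domain with few or many genes, with 1 to 19 protein-coding genes in it. The median was 4.5 protein-coding genes for the 10 Fzd genes, against 12 for all protein-coding genes in a domain. Fzd1 was alone in 725 kb, Fzd8 alone in 1325 kb and Fzd7, the main Frizzled of pluripotent cells, shared 375 kb with Cdk15 and Gm973. At the other end Fzd9 shared 725 kb with 18 others, the first being Eif4h, Limk1, Eln and Tmem270. Receptor genes are short, with a median length of 4.59 kb, against 17.4 kb for all protein-coding genes.

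The 4 R-spondin genes lay at similar distances, from 70.8 kb for Rspo2 to 118 kb for Rspo4. Rspo2, needed for limbs and lungs, shared 325 kb with Eif3e, and Rspo3, needed for the placenta and vessels, shared 1150 kb with Cenpw. Rspo3 was placed unevenly, 78.1 kb from one edge and 989 kb from the other. Rspo1, an ovary determinant, and Rspo4, a nail gene in humans, lay in fuller domains of 400 kb with 15 protein-coding genes and of 850 kb with 23. The class therefore split into a sparse and a crowded pair at like distances.

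The 4 Sfrp genes covered most of the range. Sfrp2, a Wnt-binding antagonist, lay 15.8 kb from a boundary, the closest of the members that overlapped none, with 551 kb to the other edge of its 575 kb domain. Sfrp4, an antagonist known in bone, lay 42.2 kb away in a 350 kb domain with Stard3nl, Epdr1 and Nme8. Sfrp1 lay 100.4 kb away, and Sfrp5 lay 398 kb away in a 975 kb domain with 23 protein-coding genes. The first of these are Frat1 and Frat2, which encode proteins that bind the kinase GSK3, followed by Rrp12 and Pgam1.

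The 4 Dkk genes lay 25.5 to 495 kb from a boundary. Dkk1, the inhibitor needed for head formation, was closest at 25.5 kb and alone in a 325 kb domain. Dkk3, a divergent member of the family, lay 91.0 kb away in a 325 kb domain with Usp47 and Mical2. Dkk4 lay 297 kb away. Dkk2, which acts in the eye, was the farthest of all 39 genes at 495 kb, and its 1400 kb domain held 6 protein-coding genes, the first being Cyp2u1, Sgms2, Papss1 and Gimd1. The number of other protein-coding genes with a midpoint within 500 kb of it was 0.

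**Figure D4:**
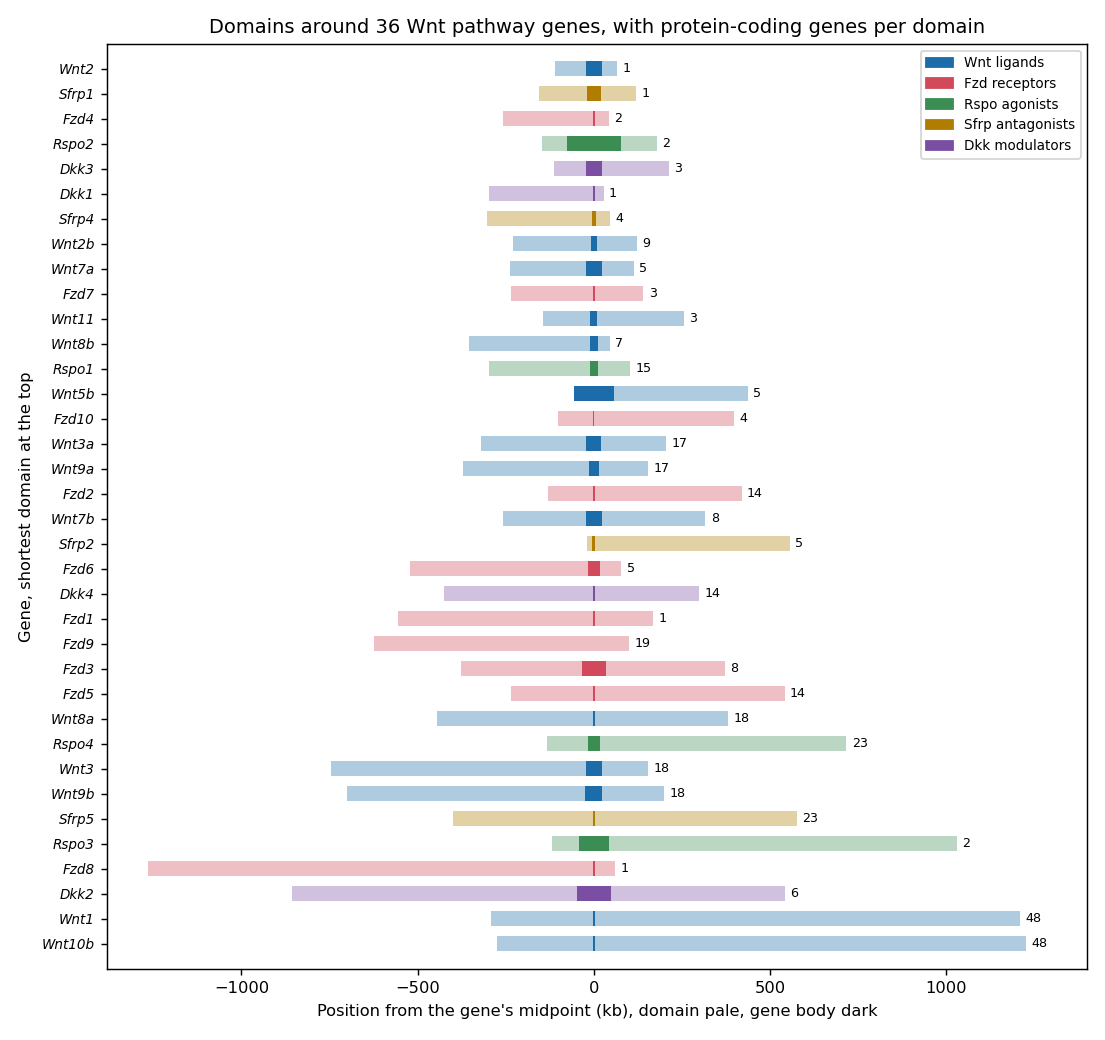
Domains (pale bars) around the 36 members whose midpoint lies in a domain, against position from the gene's midpoint in kb, with the gene body dark, colours for the 5 classes and the number of protein-coding genes in the domain at the right. The shortest domain, at the top, is the 175 kb one of Wnt2, and the longest, at the bottom, is the 1500 kb one that holds Wnt1 and Wnt10b among 48 protein-coding genes.

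Some members had a domain to themselves or nearly so. Of the 36 members in a domain, 5 were the only protein-coding gene placed there by midpoint, a share of 13.9%, against 3.87% of all protein-coding genes. They were Wnt2, Fzd1, Fzd8, Sfrp1 and Dkk1, in domains of 175 to 1325 kb, and they come from 4 of the 5 classes. A domain with up to 3 protein-coding genes held 11 of the 36 (30.6%), against 16.3% of all protein-coding genes in a domain. For the ligands this was 2 of 14, and for the receptors and modulators together 9 of 22 (40.9%). Such domains were not particular to the members. They held 15 of 45 further pathway genes in a domain (33.3%), 6 of 21 Fgf genes (28.6%) and 4 of 9 Bmp genes (44.4%). Local gene density ran the same way, with a median of 10 protein-coding neighbours within 500 kb for the members and 15 for all protein-coding genes, and its part in the result was not tested.

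These domains were not all empty of other genes. The Fzd8 domain also held 8 pseudogenes and 1 lncRNA gene, and the Sfrp1 domain 2 lncRNA genes and 1 other RNA gene. The Dkk1 domain held 3 pseudogenes and 1 lncRNA gene, and the Fzd1 domain 1 lncRNA gene. The edges of neighbouring protein-coding genes reached into 3 of the 5 domains, those of St7 and Asz1 at Wnt2, Cdk14 at Fzd1 and Prkg1 at Dkk1, which are named here after their positions were seen. Only Fzd8 and Sfrp1 thus had a domain with no part of another protein-coding gene in it. By this stricter count 2 of 36 members were alone, against 2.61% of all protein-coding genes in a domain. The domains holding a member numbered 33, and 4 of them were 1 Mb or longer.

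**Figure D5:**
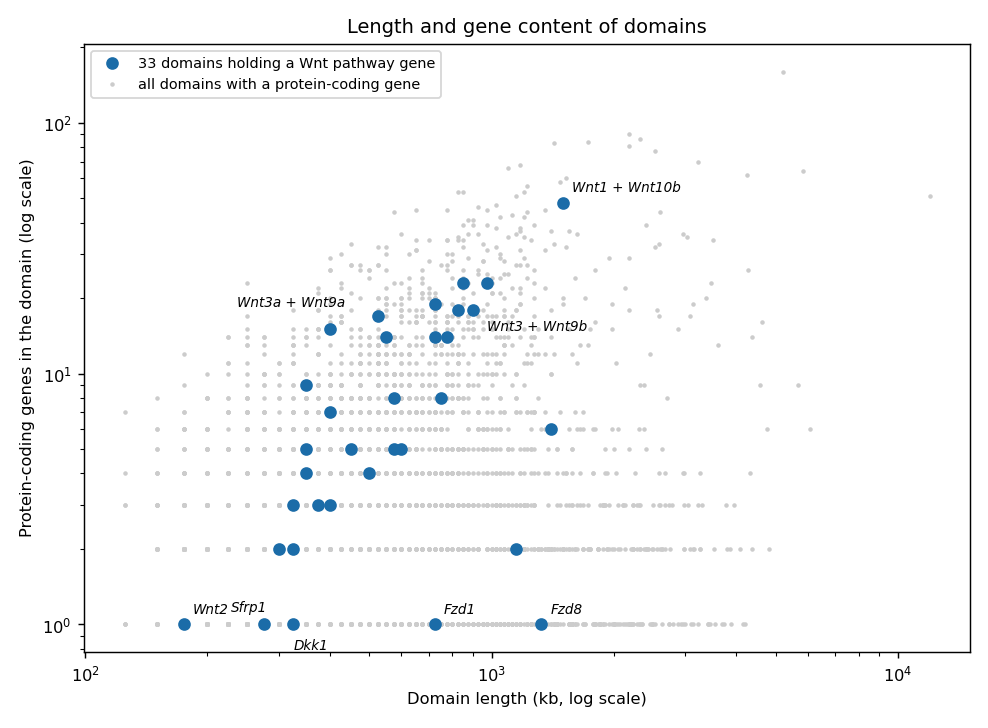
Number of protein-coding genes against domain length in kb, both on log scales, for the 33 domains that hold a member (blue) and for all domains with a protein-coding gene (grey). The 5 labelled members at the bottom are alone in domains of 175 to 1325 kb, and the 3 domains labelled with a ligand pair hold 17, 18 and 48 genes.

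Other genes of the pathway were described from a list of 49, of which 7 were near a boundary within 10 kb (14.3%), against 18.3% of all protein-coding genes. Lrp6, the Wnt co-receptor, had an end inside a boundary, as did Draxin, a secreted inhibitor, Pygo1, a nuclear partner of beta-catenin, and Tnks, a poly-ADP-ribosylase that destabilises Axin. Dvl2, a cytoplasmic transducer, lay 0.592 kb away, and Ror2, a receptor for Wnt5a, 9.32 kb away. Ryk, a Wnt co-receptor, held a whole boundary inside its body, with its nearer end 8.31 kb from the interval. Gpc3, which was not near, also held one, so 2 of the 49 genes (4.08%) did, against 3.49% of all protein-coding genes. Genes of the beta-catenin destruction complex and its target lay from 29.2 to 264 kb away. Csnk1a1, a kinase of the complex, lay 29.2 kb, Gsk3b 53.9 kb, Axin1 54.2 kb, Apc 120.3 kb, Axin2 249 kb and Ctnnb1, which encodes beta-catenin, 264 kb from a boundary. Of the TCF/LEF genes, Lef1 lay 25.6 kb, Tcf7l1 26.4 kb, Tcf7 91.6 kb and Tcf7l2 391 kb away. Of the co-activators that bind beta-catenin or its complex, Bcl9 lay 51.6 kb, Bcl9l 57.7 kb and Pygo2 1065 kb away. Lrp5 lay 738 kb and Wls, the Wnt carrier protein, 1739.7 kb from the nearest boundary. Both lie beyond the outermost listed boundary of their chromosome, so neither is in a domain and these distances run to one side only. The median of the list was 112 kb. Of its 45 genes in a domain, 0 were alone there.

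The Fgf and Bmp genes, taken by symbol, were measured in the same way, and not all of them encode secreted ligands. Among 22 Fgf genes 3 were near a boundary within 10 kb, Fgf16, Fgf18 and Fgf8, a share of 13.6%. Of the 21 in a domain, 3 were alone there (14.3%), Fgf9, Fgf10 and Fgf12. Among 9 Bmp genes only Bmp3 was near (11.1%), and Bmp2, Bmp4 and Bmp15 were alone (33.3%). Median distances were 86.2 kb for Fgf and 95.7 kb for Bmp genes. These families are given side by side with the members, and their differences were not tested.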

How the data were processed

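The authors deposited 1 list of boundary intervals made from the DMSO-treated ESC libraries together. It gives positions only, as chromosome, start and end. Per the submitters' processing notes, reads were processed with BWA 0.7.17 and Juicer 1.22.01 on mm10. How boundaries were called, at which resolution and threshold, was not given in the sources used here.

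Genes came from RefSeq on GRCm38.p6, which shares its coordinates with mm10. Left out were 345 genes listed out of order after each chromosome's sorted genes, 110 of them protein-coding, since their placement was unclear. Distances run from the nearer gene end to the nearer interval edge and are 0 inside. Genes were placed in domains by midpoint, and a linked pair has a gap under 1 Mb. Positions are counted from 1. Start sites and strands came from the RefSeq promoter table. Distances were tested on simulated data. Wilson intervals cover counting error only.

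All members and pathway genes could be named, the first 4 other genes of a domain by position, and genes ending inside a boundary. Members and lists were chosen with earlier results of these data known. Alternatives were windows of 0 and 50 kb, gene midpoints, start sites, interval centres, loci, omitted chromosomes and other pair gaps. Tables were handled in pandas 2.3.3 and numpy 2.4.6 under Python 3.11.15, intervals came from scipy 1.17.1, and plots from matplotlib 3.10.9.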

Additional observations from a re-analysis of the deposited data

How the results depend on the processing

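Of 53 alternative values, 34 were counts within 1.5 times the one reported. The other 19 follow, and where the construction of the alternative does not give it, the cause was not tested. The count of 3 members near a boundary was also 3 with no window, by gene midpoints, by interval centres, by loci and by listed starts. By listed starts it held Wnt5b and not Wnt5a, which has no listed start. Without chromosome 4, 6 or 14 it was 2. Over all protein-coding genes the share fell from 18.3% to 11.7% with no window and 11.2% by midpoints. It was 12.4% by listed starts and 9.59% by interval centres. The members' share was 7.69%, or 11.5% by listed starts, so the gap was smaller by these measures. With a window of 50 kb the counts were 10 for all members, 6 Wnt, 1 Fzd, 2 Sfrp and 1 Dkk gene, and 14 pathway, 7 Fgf and 2 Bmp genes. With no window 4 pathway genes and 1 Fgf gene were near, by midpoints 3 and 1. By listed starts 2 pathway and 0 Bmp genes were near. From gene midpoint to interval centre the members' median distance was 134 kb, against 135 kb for all protein-coding genes. Among protein-coding genes in the members' length range the median distance was 92.9 kb. Separated pairs numbered 0 with gaps under 100 kb and 3 with gaps under 2 Mb. Members alone in a domain numbered 2 when no part of another gene was allowed, and 5 with domains of up to 5 Mb only. These settings, the count of 4 members with any overlap and the midpoint-matched pairs were added after seeing the data. The list has no score, so no stricter threshold could be tried, and its 25 kb intervals limit how finely starts can be placed. No paired analysis was possible because the list pools its libraries.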

Other observations

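The paralogous neighbourhoods of Wnt5a and Wnt5b each had a boundary at the Wnt5 gene and differed in another respect. These neighbours were picked after their values were seen, and neither likeness nor difference was tested. Each Wnt5 gene lies 26.0 kb from an Erc gene, which encodes a presynaptic active zone protein, with Erc2 beside Wnt5a and Erc1 beside Wnt5b. On the opposite side lie an Lrtm gene and a gene for an auxiliary calcium channel subunit. These are Lrtm1 and Cacna2d3 for Wnt5a and Lrtm2 and Cacna2d4 for Wnt5b, with the Lrtm gene inside the span of the channel gene. The boundary that overlaps each Wnt5 gene separates the midpoints of the Erc gene and the Lrtm gene at both loci. Wnt5b shared a domain with Erc1 by midpoint, whereas the midpoint of Wnt5a lay inside the boundary interval, so Wnt5a was placed in no domain. The loci also differed beyond the Wnt5 gene. Cacna2d3 overlapped a further boundary that lay between its midpoint and Lrtm1, whereas Lrtm2 and Cacna2d4 shared the 325 kb domain. On the other side Erc2 also overlapped a further boundary, and Erc1 overlapped none.

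The paralogous neighbourhoods of Wnt2 and Wnt2b were divided differently. Wnt2b shared its 350 kb domain with St7l, which overlaps it, and with Capza1 and Cttnbp2nl, 80.3 and 40.2 kb away. Of the corresponding neighbours of Wnt2, St7 had 1 boundary between its midpoint and that of Wnt2, Capza2 had 2 and Cttnbp2 had 2. Each of these 3 genes itself overlapped a boundary. They lay farther off, with gaps to Wnt2 of 42.45 kb for St7, 318.5 kb for Capza2 and 333.7 kb for Cttnbp2. Separation is more common at wider gaps over all protein-coding gene pairs, and the part of spacing here was not tested. The Arf genes beside the ligand pairs also varied. Arf1, 19.8 kb from Wnt3a, lay in its domain. Arf3 lay in the domain of Wnt1, 26.7 kb from that gene, with Wnt10b between them. Arf2 lay farther from its ligand gene, 149 kb from Wnt3, and overlapped the boundary at the end of that ligand's domain. These genes were likewise named after their values were seen.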
